A study of Mus musculus with 22 samples.

Results

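The potassium channel genes described here are the 86 genes, of 20668 measured in hypothalamic nuclei, whose symbols begin with Kcn. Kcnq3, Kcnj10 and the transcripts Kcnd3os, Kcnab3os and Kcnq1ot1 were left out, and the antisense transcripts Kcnmb4os1 and Kcnmb4os2 stayed in. Nuclei came from male, leptin-deficient Lep ob/ob mice, a model of obesity with diabetes in which no cell makes functional leptin, at 11 weeks of age. FGF1 at a dose of 3 µg, or PBS as vehicle, was given to every mouse in 1 intracerebroventricular (icv) injection, and the intake of vehicle mice was matched by pair-feeding (PF), so that all groups share the mutation, the surgery and the food intake. Nuclei were profiled by snRNA-seq on Day 1 (n = 3 mice/group) and Day 5 (n = 2 mice/group), and whole cells by scRNA-seq, which held 72 of the 86 genes among 16304 measured, in another cohort on Day 5 (n = 6 mice/group). The comparisons asked in which hypothalamic cell types each channel gene was found and which of these genes differed between FGF1 and vehicle.

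Potassium channels let potassium leave the cell, which holds the resting potential near its negative value, ends each action potential and sets the interval to the next. Voltage-gated (Kv) channels open on depolarization, calcium-activated channels (BK, SK, IK) open when calcium enters, inward rectifiers (Kir) and K2P leak channels act near rest, and auxiliary subunits such as the Kv channel interacting proteins (KChIPs) change how the pore-forming subunits open and reach the membrane. In astrocytes, tanycytes and ependymal cells these channels are known for clearing the potassium that neurons release. Kv7 channels, which carry the M-current, hold back repetitive firing of neurons, among them neurons such as the Agrp neurons that drive feeding.

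Libraries held 2721087 to 16345981 unique molecular identifiers (UMIs) per mouse in nuclei and 2652897 to 11866269 in whole cells. On Day 1 the median UMI number per nucleus was 2029 to 2816 in FGF1 mice and 3178.5 to 3776 in vehicle mice, so the groups did not overlap in depth. Each batch of the deposited metadata held 1 FGF1 and 1 vehicle mouse. Each glial label and the Agrp, Oxt, n16 and n29 labels carried their markers in every vehicle mouse, but nuclei labelled oligodendrocytes, microglia and committed oligodendrocyte precursors (COP) also held neuronal RNA: the summed level of 5 neuron markers was 3240 to 3596 CPM (UMIs of a gene scaled to a fixed library total) in oligodendrocytes and 2877 to 3766 CPM in microglia of vehicle mice, against 3561 to 3969 CPM in neurons that could not be mapped to a published type. It was 1215 to 1811 CPM in astrocytes and 280.4 to 759.1 CPM in ependymal cells on Day 1. What this RNA adds to the channel values of glial nuclei was not tested. Nuclei had no separate label for oligodendrocyte precursors (OPC), and the study's gene lists for nuclei put OPC and COP together. COP in nuclei therefore stands here for OPC and COP together, which whole cells gave as separate classes. Of 24965 nuclei and 54890 whole cells, 638 and 3616 barcodes carried a sequence found in more than 1 library.

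In nuclei, the 86 genes took 1112060 UMIs, which was 1.37% of all UMIs. Kcnip4, which encodes a KChIP, alone held 471928 of them and, with the Kv4 gene Kcnd2, 58.7%. Introns were counted in nuclei, and UMI numbers rose with gene length (Spearman 0.798 between UMIs and genomic span over the 86 genes, which share libraries and depth), so these counts do not rank the genes by abundance. In whole cells, from which the study had removed neurons and where introns were not counted, the genes took 0.074% of UMIs and Kcnip4 had 459. In nuclei 12 genes had fewer than 50 UMIs (Kcna10, Kcne1, Kcne2, Kcne4, Kcnj14, Kcnj15, Kcnk18, Kcnk5, Kcnk7, Kcnmb4os1, Kcnmb4os2 and Kcns1) and 39 had at least 1000.

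Promoter windows, from 250 bases before to 50 bases after the start of transcription, are shown for the genes with the largest called rise after FGF1 in nuclei and in whole cells, Kcnq5 (Agrp nuclei, Day 1) and Kcne1l (astrocyte-like cells, Day 5), and for Kcnk2, the called gene with an AP-1 match. Sequences are RefSeq's on GRCm38.p6, 5′ to 3′ on the strand of the gene, and 62 of the 86 genes had a window (86 windows in all). Capitals mark a match to the AP-1 motif, which binds factors of the Fos and Jun families.
Kcnq5 (chr1:21961893-21962192, minus strand, 1 of 2 windows): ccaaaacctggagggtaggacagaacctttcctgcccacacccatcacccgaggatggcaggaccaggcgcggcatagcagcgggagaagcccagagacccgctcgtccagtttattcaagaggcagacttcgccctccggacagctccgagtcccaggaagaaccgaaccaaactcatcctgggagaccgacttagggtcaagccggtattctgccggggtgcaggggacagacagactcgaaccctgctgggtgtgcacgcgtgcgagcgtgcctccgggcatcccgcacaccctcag
Kcne1l (chrX:142306149-142306448, minus strand): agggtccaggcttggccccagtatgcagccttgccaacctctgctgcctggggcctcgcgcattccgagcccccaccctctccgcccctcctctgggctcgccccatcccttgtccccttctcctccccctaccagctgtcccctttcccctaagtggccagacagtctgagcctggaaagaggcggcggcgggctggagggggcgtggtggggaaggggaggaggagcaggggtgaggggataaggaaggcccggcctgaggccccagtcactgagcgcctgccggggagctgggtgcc
Kcnk2 (chr1:189344143-189344442, minus strand, 1 of 4 windows): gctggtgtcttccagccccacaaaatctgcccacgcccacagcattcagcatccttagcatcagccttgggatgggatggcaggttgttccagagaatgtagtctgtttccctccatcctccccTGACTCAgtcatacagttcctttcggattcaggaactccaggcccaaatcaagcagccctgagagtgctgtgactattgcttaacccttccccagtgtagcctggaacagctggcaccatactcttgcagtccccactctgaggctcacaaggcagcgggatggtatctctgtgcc

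The Kcnk2 match starts 126 bases before the start. Searched on both strands, TGANTCA (AP-1) was in 3 of the 86 channel windows and in 7.81% of 32851 promoter windows of all genes, CCGGAAG (ETS) in 3 and in 8.86%, CACGTG (E-box) in 7 and in 7.15%, and TGACGTCA (CRE) in 0 and in 1.79%. The 4 motifs were searched separately, and a match is only a run of letters in the window.

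Across cell types, levels were compared in vehicle mice as CPM, mean ± SD over mice (n = 3 to 5 mice by type), in the 18 nuclear types with at least 3 such mice. Cell types had been made by clustering the same nuclei, so these levels are a description and carry no test. Of the 74 channel genes with at least 50 UMIs, 44 were highest in 1 of the 11 neuron types and 30 in 1 of the 7 glial or vessel types, most often in ependymal cells (12 genes), Glu4 neurons (12), Glu6 neurons (6), Oxt neurons (6), n29 neurons (6), vascular and leptomeningeal cells (VLMC, 6) and Agrp neurons (5). Since 11 of the 18 types were neuronal and no such count was made over all genes, 44 of 74 does not show a leaning to neurons. Ependymal nuclei of vehicle mice held only 195847 UMIs in all. Of the 12 genes highest there, only Kcnn3 (24 UMIs) had at least 20 UMIs in these nuclei, so the count of 12 rests on few UMIs. Small types have wide spreads, and only 2 genes had every mouse of the highest type above every mouse of the second. These were Kcnh1, an ether-a-go-go channel, in Oxt neurons (352 ± 154 CPM, n = 5; n29 neurons 91.3 ± 21.1) and Kcnn3, an SK channel, in ependymal cells (123 ± 20.1 CPM, n = 3; n29 neurons 72.7 ± 13.2). The heat map of nuclei shows the levels of 35 genes with at least 1000 UMIs.

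**Figure D1:**
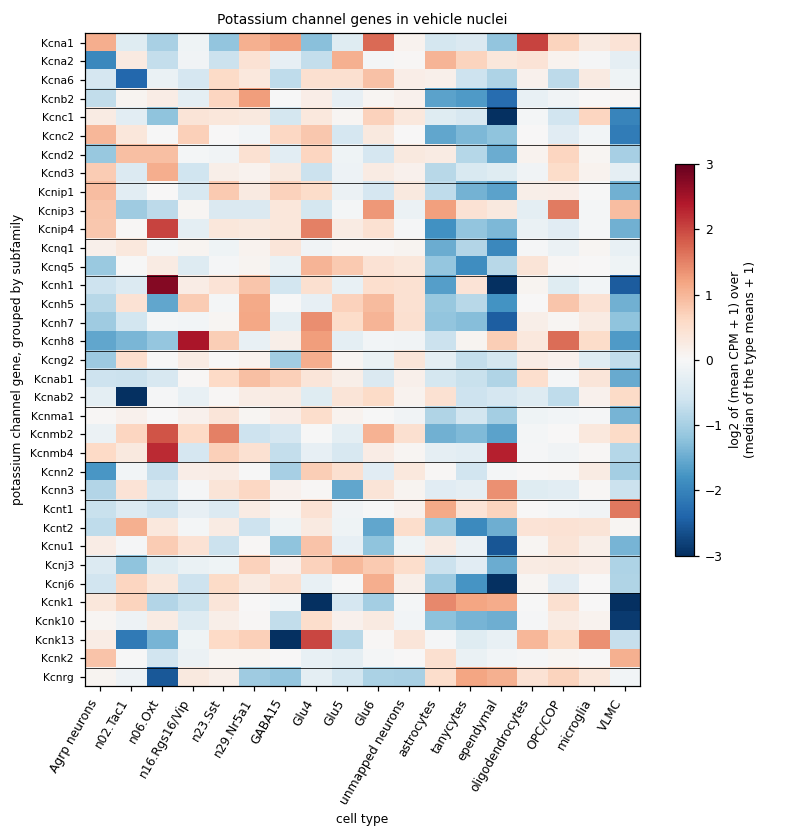
Levels of the channel genes (rows) in nuclear cell types (columns) of vehicle mice, coloured as log2 of (mean CPM + 1) over (median of the type means + 1), with colours capped at 3 and -3. Kcnh1 stands out in Oxt neurons, Kcnh8 in n16 neurons and COP (drawn as OPC/COP), Kcnmb4 in Oxt neurons and ependymal cells and Kcna1 in oligodendrocytes.

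Among pore-forming Kv genes, the Kv4 gene Kcnd2, which carries the fast A-type current of dendrites, was 3261 ± 859 CPM in Oxt neurons and 3260 ± 793 CPM in n02 neurons, which did not differ beyond their spread, and 627 CPM in ependymal cells, its lowest type. Its relative Kcnd3 was also highest in Oxt neurons (230 ± 41.9 CPM), followed by Agrp neurons (182 ± 54.3 CPM). Kcnb2, a Kv2 channel of the delayed rectifier, was highest in n29 neurons, the Nr5a1 neurons of the ventromedial hypothalamus (1679 ± 270 CPM; n23 neurons 1096 ± 309).

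Kcnc2, a Kv3 channel that allows fast firing, was 849 ± 483 CPM in Agrp neurons and 747 ± 255 CPM in Glu4 neurons, within their spreads. Kcnc1 reached 49.9 ± 19.4 CPM in Glu6 neurons and 48.1 ± 19.4 CPM in microglial nuclei. The part of neuronal RNA in the microglial value was not tested. The Kv1 gene Kcna1, known from axons beneath the myelin sheath, was highest in oligodendrocytes (52.9 ± 17.1 CPM), ahead of Glu6 neurons (41.6 ± 36.6). Kcna2, at most 33.0 ± 23.7 CPM in Glu5 neurons, and Kcna6, at most 41.1 ± 20.4 CPM in Glu6 neurons, overlapped between their top types, and Kcna4 was 40.4 ± 19.8 CPM in n02 neurons and 14.3 ± 10.6 CPM in Glu5 neurons.

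Of the Kv7 genes, which carry the M-current, Kcnq5 was highest in Glu4 (865 ± 194 CPM) and Glu5 (734 ± 193 CPM) neurons and lowest in tanycytes (115 CPM). Kcnq1 was 252 ± 141 CPM in GABA15 neurons. In the ether-a-go-go group, Kcnh7 was highest in Glu4 (1344 ± 469 CPM) and n29 (1142 ± 226 CPM) neurons, and Kcnh8 was highest in n16 neurons of the Rgs16 and Vip type (321 ± 69.6 CPM), with COP second (187 ± 40.0 CPM). Kcnh5 was 122 ± 26.5 CPM in n29 neurons and 93.0 ± 31.0 CPM in n16 neurons, and Kcnh1 in tanycytes was 68.2 ± 94.9 CPM, where 1 of 4 mice held most of the signal (210 CPM against a median of 24.1).

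The silent Kv subunits, which form no channel alone, were sparse: Kcng2 was at most 33.3 ± 17.3 CPM in Glu4 neurons and Kcng3 at most 12.0 ± 5.14 CPM in microglia. Kcnv2 was 2.50 ± 1.05 CPM in unmapped neurons (37 UMIs) and highest in n29 neurons (6.65 ± 2.61 CPM). Of the auxiliary subunits, the Kv beta gene Kcnab3 was 3.75 ± 0.862 CPM in unmapped neurons (54 UMIs). It was highest in VLMC (17.6 ± 30.4 CPM), where the spread exceeds the mean. Kcnip4 was 21570 ± 2955 CPM in Oxt neurons, 15220 ± 7183 CPM in Glu4 neurons, and 1504 CPM in astrocytes, its lowest type. Kcnip1 was 364 ± 54.6 CPM in Agrp, 326 ± 31.8 CPM in n23 and 307 ± 87.1 CPM in GABA15 neurons, and Kcnip3 was 97.8 ± 36.0 CPM in COP and 80.9 ± 21.1 CPM in Glu6 neurons. Kcnab1, a Kv beta subunit, was 313 ± 22.2 CPM in n29 and 275 ± 14.0 CPM in GABA15 neurons, while Kcnab2 stayed at or below 21.9 ± 16.8 CPM (Glu6 neurons). Kcne1l, of the MinK group, was 25.2 ± 7.63 CPM in ependymal cells and 20.2 ± 12.3 CPM in astrocytes.

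Kir genes differed in the types where they were highest. The G protein-gated (GIRK) genes, which carry slow inhibition, overlapped between neuronal and glial labels. Among neuron types their summed level ran from 215 CPM in Agrp neurons to 510.5 CPM in Glu6 neurons. Among glial and vessel types it ran from 75.2 CPM in ependymal cells to 318 CPM in oligodendrocytes, with 308 CPM in microglia. Kcnj3 was 364 ± 112 CPM in Glu5 neurons and Kcnj6 was 172 ± 70.7 CPM in Glu6 neurons. Kcnj5 was 7.10 ± 4.51 CPM in n29 neurons and at most 7.78 ± 9.13 CPM (Glu4 neurons). Kcnj16, a subunit of the glial transport channels that joins Kcnj10, was highest in astrocytes (47.6 ± 15.5 CPM; ependymal cells 15.0 ± 15.3). Kcnj13 was highest in VLMC (53.7 ± 29.3 CPM), and the classical Kir genes Kcnj12 and Kcnj2 reached 9.33 ± 8.83 CPM in n02 neurons and 17.1 ± 14.8 CPM in VLMC. Vehicle nuclei of VLMC and n02 neurons held only 166463 and 211006 UMIs of all genes, so these 3 levels rest on few UMIs. Kcnj8, the pore of vascular ATP-sensitive channels, had 102 UMIs in all nuclei and no type above 0.663 CPM; endothelial nuclei had no level, since no vehicle mouse had 10 of them.

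Among K2P leak channels, Kcnk2 was highest in VLMC (201 ± 143 CPM) and Agrp neurons (175 ± 87.5 CPM). Kcnk10 was 81.9 ± 43.6 CPM in Glu4 neurons, and Kcnk13 was 78.0 ± 48.3 CPM in Glu4 neurons, 49.7 ± 25.7 CPM in microglia and 38.0 ± 11.4 CPM in oligodendrocytes. The BK pore Kcnma1 was 844 ± 119 CPM in Glu4 neurons. Its auxiliary genes Kcnmb2, at 185 ± 39.9 CPM in Oxt and 143 ± 64.7 CPM in n23 neurons, and Kcnmb4, at 84.1 ± 52.1 CPM in ependymal cells and 78.1 ± 26.0 CPM in Oxt neurons, were both high in Oxt neurons. The SK gene Kcnn2 was 255 ± 42.6 CPM in Glu4 neurons and 147 ± 43.3 CPM in ependymal cells.

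The genes of the Slack, Slick and Slo3 subfamily, of which Kcnt1 and Kcnt2 encode sodium-activated channels, differed in their types. Kcnt2 was 375 ± 121 CPM in n02 neurons and 185 ± 238 CPM in VLMC, where the spread exceeds the mean, and Kcnt1 was 103.5 ± 28.6 CPM in VLMC, 76.0 ± 31.6 CPM in astrocytes and 45.8 ± 11.1 CPM in tanycytes. Kcnu1, best known from sperm, was 119 ± 102 CPM in Glu4 neurons and 112 ± 167 CPM in Oxt neurons, so its values differed widely between mice. Kcnrg, which is no channel but is named as a regulator, was 39.3 ± 19.0 CPM in tanycytes.

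Whole cells gave the glial and vascular levels without neurons, in 11 classes named astrocyte-like, tanycyte-like and so on from their markers (n = 6 vehicle mice; fewer for VLMC-like cells and macrophage-like cells, with 4 each). Of 58 channel genes with at least 50 UMIs, 16 were highest in oligodendrocyte precursor-like (OPC-like) cells, 9 in ependymal-like cells, 6 in astrocyte-like and 6 in COP-like cells. In 11 genes every mouse of the highest class exceeded every mouse of the second. These counts were not made over all genes, so they do not set the channel genes apart. Kcna1 and Kcna6, both Kv1 channels, were highest in oligodendrocyte-like cells at 301 ± 35.6 CPM (COP-like 79.9 ± 53.3) and 143 ± 16.3 CPM (OPC-like 65.2 ± 11.4). Kcna2 was highest in COP-like cells at 268 ± 148 CPM, ahead of oligodendrocyte-like cells at 58.4 ± 9.91 CPM. The COP-like value rested on 77 UMIs from 16 to 51 cells per mouse and ran from 87.6 to 455.7 CPM.

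OPC-like cells led in the A-type genes and their KChIP: Kcnd2 was 196 ± 30.8 CPM there (astrocyte-like 116 ± 8.60), Kcnd3 was 49.6 ± 11.0 CPM (ependymal-like 15.6 ± 3.61) and Kcnip3 was 384 ± 64.0 CPM (astrocyte-like 107 ± 16.2). Kcnc1 was also highest in OPC-like cells, at 19.6 ± 4.44 CPM. Ependymal-like cells led in the BK auxiliary gene Kcnmb1 (105.0 ± 31.4 CPM; endothelial-like 12.6 ± 1.63), in the IK channel Kcnn4 (33.6 ± 7.49 CPM; tanycyte-like 4.74 ± 1.33) and in Kcnh3 (25.5 ± 5.44 CPM; tanycyte-like 1.18 ± 0.967). In nuclei Kcnmb1 and Kcnn4 were highest in the same cell type, at 21.2 ± 18.4 and 60.8 ± 28.0 CPM (n = 3). These values rest on few counts, with 52 and 241 UMIs in all nuclei. Neither gene stood apart from its second type in every mouse (Kcnn4 in GABA15 neurons 20.6 ± 27.2 CPM).

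Kcnt1 was highest in astrocyte-like cells (127 ± 22.1 CPM; VLMC-like 31.4 ± 27.2). Other genes had a leading class that overlapped the next. Kcnj8 was 329 ± 186 CPM in pericyte-like and 82.9 ± 30.7 CPM in endothelial-like cells, Kcnj16 was 149.5 ± 16.6 CPM in astrocyte-like cells, Kcnk13 was 34.4 ± 4.82 CPM in oligodendrocyte-like and 24.6 ± 13.4 CPM in microglia-like cells, and Kcnk6 was 32.1 ± 25.6 CPM in microglia-like cells. The endothelial-like cluster met 5 endothelial markers and also 5 pericyte markers. Its levels, among them those of Kcnj8 and Kcnmb1, thus cannot be assigned to endothelial cells alone, and the part of pericyte RNA was not tested. The heat map of whole cells shows 34 genes with at least 200 UMIs.

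**Figure D2:**
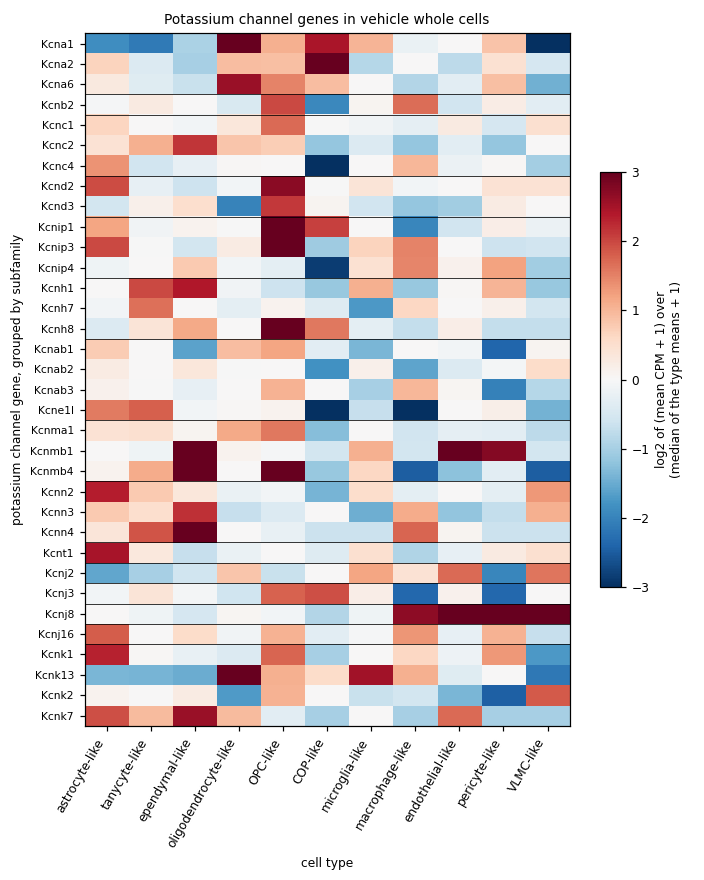
Levels of the channel genes (rows) in whole-cell classes (columns) of vehicle mice on Day 5, coloured as log2 of (mean CPM + 1) over (median of the class means + 1), with colours capped at 3 and -3. Kcna1 and Kcna6 stand out in oligodendrocyte-like cells, Kcnip3 and Kcnd3 in OPC-like cells, Kcnmb1 and Kcnn4 in ependymal-like cells and Kcnj8 in pericyte-like cells.

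FGF1 was compared with vehicle on counts summed per mouse and cell type, in which fewer nuclei with a transcript and less of it per nucleus cannot be told apart. On Day 1, 61 of the 86 genes passed the filter on low counts in at least 1 of 18 types, giving 377 pairs of a gene and a cell type. At an FDR below 0.05, 2 of the 377 pairs were called, both higher after FGF1: Kcnq5 in Agrp neurons and Kcnd3 in ependymal cells. Over all genes and types, 1.05% of 72292 pairs were called. At an unadjusted p below 0.05 there were 32 channel pairs (8.49%, against 8.12% of all pairs), and in 54 pairs the groups did not overlap (15.8% of all pairs). The median log2 fold change was 0.06 over the channel pairs and lay between -0.05 and 0.03 over all genes of each type.

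Kcnq5, an M-type channel gene, was the largest of the called differences. In Agrp neurons, vehicle mice 1, 2 and 3 had 239.8, 316.5 and 103.9 CPM. FGF1 mice 1, 2 and 3 had 788.9, 1093 and 1493 CPM. Every FGF1 mouse was thus above every vehicle mouse, so FGF1 had to exceed vehicle in each batch. In the 3 batches it did so 7.59-fold, 4.56-fold and 4.72-fold. The log2 fold change was 2.20 ± 0.38 (SE; FDR = 0.041), in a type where 0.298% of 2350 genes were called. The values came from 15 to 96 nuclei per mouse. Fold changes lay between 2.01 and 2.45 on the log2 scale under all 12 alternatives, but the FDR ran from 7.8e-05 to 0.232 and passed in 5 of them. Among the 7 settings in which it did not pass were those without FGF1 mouse 2 (0.108), FGF1 mouse 3 (0.0905), or vehicle mouse 1 (0.232), 2 (0.084) or 3 (0.105), and thinning of each nucleus to 1000 UMIs (0.0573). The summed neuron markers in the same nuclei were 1246 to 2038 CPM in FGF1 mice and 2258 to 2994 CPM in vehicle mice, and their part in the Kcnq5 values was not tested.

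In the other types tested, Kcnq5 had log2 values from -0.99 to 0.93, and the difference between types was not tested. In n23 neurons vehicle mice had 628.9, 675.8 and 653.2 CPM and FGF1 mice 1372, 1484 and 816.2 CPM, without overlap (log2 0.93 ± 0.30, unadjusted p = 0.0081, FDR = 0.592). In Agrp neurons on Day 5, vehicle mice 28 and 38 had 431.2 and 439.7 CPM and FGF1 mice 37 and 45 had 698.9 and 241.2 CPM, so the groups overlapped. The difference between days was tested as an interaction and was not called (FDR = 0.81), which does not show that the days were alike. Exons of Kcnq5, like those of Kcnip4 and Kcnmb4, overlap a gene on the other strand, and whether counting used strand was not given in the sources used here. Kcnq3, which joins Kcnq5 in M-channels and is not among the 86 genes, had a log2 fold change of 2.16 (FDR = 0.0098) in the same Agrp nuclei.

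Kcnd3 encodes an A-type channel. In ependymal nuclei, vehicle mice 1, 2 and 3 had 88.95, 248.7 and 143.2 CPM and FGF1 mice had 327.7, 427.1 and 478.5 CPM, with no overlap. Without overlap FGF1 had to exceed vehicle in 3 of 3 batches, and it did so by 1.92-fold to 4.80-fold. The log2 fold change was 1.35 ± 0.45 (FDR = 0.045) in a type where 19% of 1456 genes were called, 10.2% as higher. It passed the FDR in 2 of 11 alternatives, with values from 1.08 to 1.75 and an FDR of up to 0.176, and it was lost with DESeq2 (FDR = 0.147), with no filter on low counts (0.141), with the batch as a block (0.072), and without any of the 3 FGF1 mice or vehicle mice 1 or 3 (0.0533 to 0.176). Only 13 to 23 nuclei per mouse stood behind it, with 16 UMIs of Kcnd3 in vehicle and 43 in FGF1 mice. In those nuclei the summed ependymal markers were 826.8 to 1435 CPM in FGF1 mice and 2578 to 3563 CPM in vehicle mice, and the summed astrocyte markers were 215.3 to 535.9 and 810.3 to 1003 CPM, so marker levels moved with the group. Their part in the Kcnd3 values was not tested. Kcnd3 exons also overlap its antisense transcript.

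**Figure D3:**
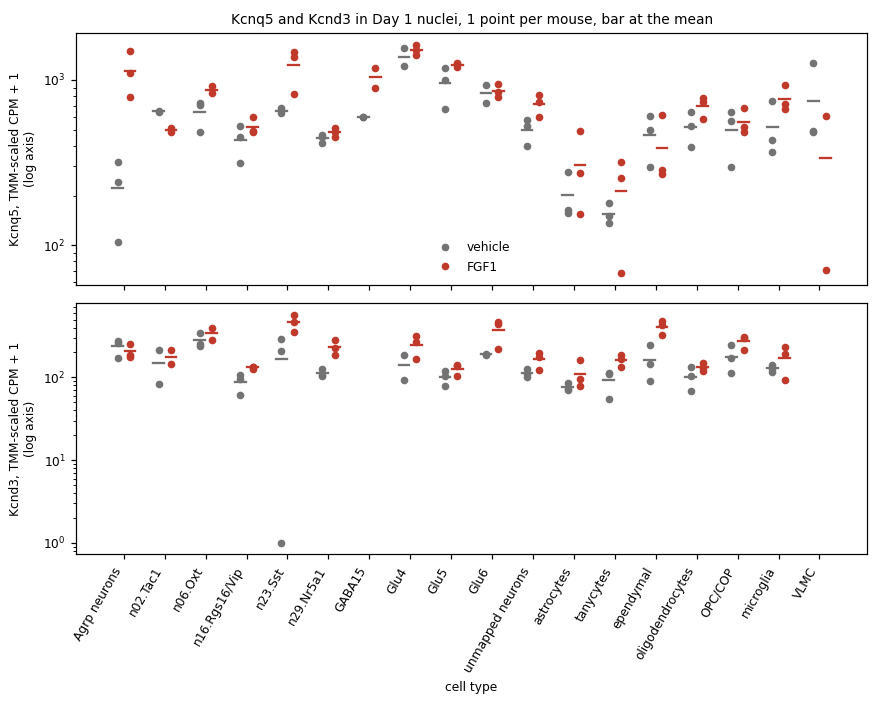
Kcnq5 and Kcnd3 on Day 1 in each cell type (CPM + 1, log axis), with 1 point per mouse for vehicle and FGF1. The FGF1 points of Kcnq5 in Agrp neurons (788.9 to 1493 CPM) and of Kcnd3 in ependymal cells (327.7 to 478.5 CPM) lie above all vehicle points of the same type.

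Among pairs that did not pass the FDR on Day 1, those with the smallest p and no overlap are given as values. Kcnip4 in Agrp neurons was 12890, 8704 and 14100 CPM in vehicle mice and 4124, 5745 and 4549 CPM in FGF1 mice (log2 -1.31, FDR = 0.0885). The summed neuron markers of these Agrp nuclei, given above, were also lower in FGF1 mice, and their part in the Kcnip4 values was not tested. Kcnip4 was likewise at lower values in tanycytes (log2 -1.38, FDR = 0.09), where vehicle mice had 1928, 1979 and 5077 CPM. In VLMC (log2 -2.04, FDR = 0.197) vehicle mice had 2285, 2510 and 6439 CPM. There only 2 FGF1 mice could be used, with 37 UMIs of Kcnip4. In astrocytes, the KChIP gene Kcnip3 was 86.5, 85.1 and 39.2 CPM in vehicle mice and 262.2, 324.8 and 247.1 CPM in FGF1 mice (log2 1.95, FDR = 0.0696).

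Kcnip3 also had log2 values of 1.32 in COP and 1.03 in oligodendrocytes (FDR = 0.327 and 0.752). The sodium-activated channel gene Kcnt1 in astrocytes was 106.8, 54.2 and 124.0 CPM in vehicle mice and 28.3, 26.6 and 6.68 CPM in FGF1 mice (log2 -1.96, FDR = 0.108). Kcnd3 in n29 neurons was 102.3, 107.0 and 125.8 CPM in vehicle mice and 185.5, 285.8 and 225.3 CPM in FGF1 mice (log2 1.06, FDR = 0.117). These pairs had been chosen because their groups stood apart, so that is no support for them. On the same mice DESeq2 called Kcnip4 in Agrp neurons and Kcnip3 and Kcnt1 in astrocytes. It called 10 of 2350 genes in Agrp neurons and 200 of 6063 in astrocytes, where edgeR called 7 and 94. Other pairs of this kind had log2 values from -0.97 (Kcnc2 in Glu5 neurons) to 1.29 (Kcnd3 in n23 neurons): Kcnt2 in n29 neurons -0.87, Kcnj6 in n29 neurons 0.58 and in n16 neurons 1.06, Kcnk13 in oligodendrocytes 0.94, and in unmapped neurons Kcnk1 1.11 and Kcnc4 0.87. Of 181 pairs of partner genes (other potassium transport genes and subunits), 2 were called, 1 higher and 1 lower (1.05% of the pairs of all genes). The lower pair was Lgi1 in ependymal cells (log2 -2.36).

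Of all channel pairs on Day 1, 202 of 377 had a log2 above 0. By subfamily these were 25 of 35 Kv4 (median log2 0.25), 22 of 31 K2P (0.29) and 21 of 29 GIRK pairs (0.16). They were 3 of 20 Slack, Slick and Slo3 (-0.38), 14 of 42 KChIP (-0.12) and 6 of 17 Kv beta and MinK pairs (-0.15). Ether-a-go-go genes had 18 of 44 (-0.06) and Kv7 genes 22 of 48 (-0.09). Other subfamilies are not listed. Pairs of a subfamily share genes and mice, and these counts were not tested. No subfamily besides Kv4 and Kv7 held a called pair.

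On Day 5 in nuclei, 62 channel genes in 11 types gave 340 pairs, and 0 passed an FDR below 0.05 by edgeR or by DESeq2, with 40 and 19 at an unadjusted p below 0.05. Of all genes and types, 0.288% of 71541 pairs were called. By edgeR 11.8% of the channel pairs and 8.6% of all pairs had an unadjusted p below 0.05. With 2 mice per group, the groups stood apart in 138 channel pairs (38.9% of all pairs), and the median log2 was 0.14. These are values, not changes, and 0 calls do not show that the genes were unchanged. In Glu4 neurons, the A-type gene Kcnd3 was 21.1 and 87.6 CPM in vehicle and 178.4 and 252.0 CPM in FGF1 mice (log2 1.78, FDR = 0.326). These Kcnd3 values rested on 9 UMIs in vehicle and 145 in FGF1 mice. Glu4 nuclei numbered 13 to 18 per vehicle mouse and 59 to 193 per FGF1 mouse. Kcnip4 in Glu4 neurons was 14730 and 16270 CPM in vehicle and 24270 and 33480 CPM in FGF1 mice (log2 0.90, FDR = 0.326), and Kcnd2 was 2086 and 2901 against 4213 and 4436 CPM (log2 0.78).

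The same genes had positive values elsewhere: Kcnd2 had log2 values of 0.44 in unmapped and 0.38 in n29 neurons, and Kcnip4 had 0.52 and 0.35. In contrast, Kcnu1 had a negative log2 value in all 10 types tested. In Glu4 neurons it was 189.7 and 295.6 CPM in vehicle and 74.3 and 90.2 CPM in FGF1 mice (log2 -1.59, unadjusted p = 0.00052, FDR = 0.265), and in microglia 90.4 and 242.3 against 14.9 and 49.6 CPM. Vehicle mouse 38 had the highest Kcnu1 in each of these types. Kcnh8 in COP was 249.5 and 226.1 CPM in vehicle and 142.3 and 83.4 CPM in FGF1 mice (log2 -1.13, FDR = 0.103). Of the partner genes, 0 of 142 pairs were called. The interaction of day and FGF1, tested in 352 channel pairs, called 0 by edgeR or DESeq2, and 0.00784% of 76499 pairs of all genes were called. At an unadjusted p below 0.05 there were 18 channel pairs by edgeR (5.11%, against 4.49% of all pairs) and 9 by DESeq2.

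In whole cells on Day 5, 34 of the channel genes gave 89 pairs in 8 classes, and 12 pairs passed an FDR below 0.05, 5 higher and 7 lower after FGF1. This compares with 4.1% of 55879 pairs of all genes. At an unadjusted p below 0.05 there were 38 channel pairs (42.7%, against 17.6% of all pairs), 11 of them positive, and the median log2 over the channel pairs was -0.22. Groups stood apart in 2 of 89 pairs (2.19% of all pairs). In astrocyte-like cells 10 of 22 pairs were called, 5 in each direction, where 12.6% of 9830 genes were called (6.55% higher and 6.06% lower), and in tanycyte-like cells 2 of 21, both lower, where 5.08% of 10494 genes were called (2.79% lower). In oligodendrocyte-like cells, where 2.25% of 8438 genes were called, 0 of 14 were called by edgeR or DESeq2. By edgeR 8 of them had an unadjusted p below 0.05, as did 1542 of the 8438 genes. Their median log2 was -0.54, against -0.003 over all genes of the class. Some of these classes joined more than 1 cluster. Astrocyte-like cells joined cluster 1 and cluster 4, which had Gfap and Aqp4 among its top genes. Tanycyte-like cells joined clusters 0, 7 and 10. A shift in the shares of these clusters and a change within cells cannot be told apart in the summed counts. The shares were not tested. The plot of all pairs shows the spread in the 3 comparisons.

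**Figure D4:**
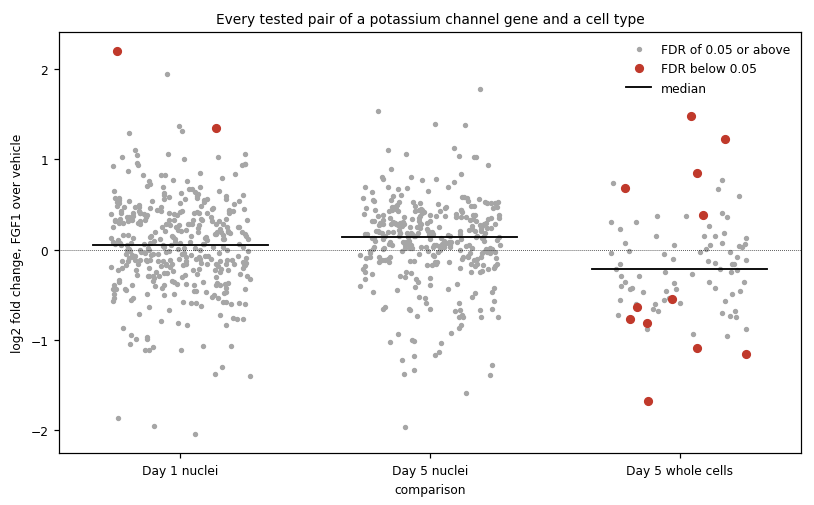
Log2 fold change, FGF1 over vehicle, of every tested pair of a channel gene and a cell type, with called pairs (FDR below 0.05) in red and the median as a line. Day 1 nuclei have 2 called pairs, Day 5 nuclei 0, and Day 5 whole cells 12 among fewer pairs.

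Among the genes that rose in astrocyte-like cells, Kcne1l, an auxiliary subunit of the MinK group on the X chromosome, had the largest difference. Vehicle mice had 14.9, 26.1 and 40.0 CPM (lowest, median and highest of 6) and FGF1 mice 50.8, 65.9 and 129.6 CPM. The groups did not overlap, and the log2 fold change was 1.48 ± 0.28 (FDR = 0.0042), called in all 17 alternatives. Kcne1l in tanycyte-like cells had a log2 value of 0.05 ± 0.25.

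The K2P genes Kcnk7, whose product is not known to carry current alone, and Kcnk2, a leak channel opened by stretch and lipids, also rose. Kcnk7 was 3.00, 7.98 and 9.87 CPM (lowest, median, highest) in vehicle and 6.77, 15.9 and 22.5 CPM in FGF1 mice (log2 1.23 ± 0.30, FDR = 0.0063). Kcnk2 was 17.0, 20.7 and 26.5 CPM in vehicle and 26.0, 33.7 and 49.3 CPM in FGF1 mice (log2 0.68 ± 0.17, FDR = 0.0091). The groups of both genes overlapped at their edges, and FGF1 was higher in 6 of 6 batches. Kcnd3 was 5.99, 7.06 and 9.32 CPM in vehicle and 9.24, 11.5 and 20.3 CPM in FGF1 mice (log2 0.85 ± 0.25, FDR = 0.024), higher in 5 of 6 batches. Its call was lost without FGF1 mouse 7 or 21 or vehicle mouse 25 (FDR from 0.0557 to 0.0635).

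Kcnj16, the glial Kir subunit, rose least: vehicle mice had 129.4, 156.4 and 174.3 CPM and FGF1 mice 164.8, 189.3 and 274.0 CPM (log2 0.38 ± 0.12, FDR = 0.033). The groups overlapped, and the call was lost without FGF1 mouse 6 or 21 or vehicle mouse 20, 25 or 29 (FDR from 0.0513 to 0.102). Kcnj16 had log2 values of -0.68 ± 0.23 in oligodendrocyte-like and -0.59 ± 0.19 in tanycyte-like cells, which were not called (FDR = 0.111 and 0.0767). The difference between classes was not tested. Kcnj10, which is not among the 86 genes, had a log2 value of 0.48 in astrocyte-like cells.

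Among the genes that fell in astrocyte-like cells, Kcnip1, a KChIP gene, had the largest difference on few counts: vehicle mice had 4.50, 8.08 and 12.5 CPM (79 UMIs) and FGF1 mice 1.495, 1.91 and 7.04 CPM (16 UMIs). Its log2 fold change was -1.68 ± 0.40 (FDR = 0.0051). The groups overlapped, and FGF1 was lower in 6 of 6 batches. Kcnip1 passed the filter on low counts in only 11 of 17 alternatives. It was called in those and was not tested in the rest.

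Kcnc4, a Kv3 gene, was 19.9, 26.4 and 32.5 CPM in vehicle and 8.46, 15.9 and 21.3 CPM in FGF1 mice (log2 -0.77 ± 0.20, FDR = 0.0102). Kcna6, a Kv1 gene, was 18.6, 28.9 and 39.5 CPM in vehicle and 13.9, 17.7 and 33.8 CPM in FGF1 mice (log2 -0.63 ± 0.20, FDR = 0.031). The Kcna6 groups overlapped more, FGF1 was lower in 5 of 6 batches, and the call was lost with DESeq2 (FDR = 0.0558) and without FGF1 mouse 10, 21, 28 or 36 or vehicle mouse 20 (FDR from 0.061 to 0.106).

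Kcnt1, which leads in astrocyte-like cells, was lower after FGF1 in all 3 classes in which it was tested. Astrocyte-like cells had 106.2, 133.9 and 158.4 CPM in vehicle and 55.8, 87.4 and 112.2 CPM in FGF1 mice (log2 -0.54 ± 0.14, FDR = 0.0079). Tanycyte-like cells had 15.4, 29.0 and 34.1 CPM in vehicle and 11.8, 15.3 and 29.99 CPM in FGF1 mice (log2 -0.81 ± 0.21, FDR = 0.021). Oligodendrocyte-like cells had 12.2, 18.7 and 27.2 CPM in vehicle and 6.92, 9.82 and 11.6 CPM in FGF1 mice, where the groups stood apart but the pair was not called (log2 -0.88 ± 0.25, FDR = 0.054). The tanycyte-like call was lost without FGF1 mouse 10 or vehicle mouse 20, 25 or 29 (FDR from 0.0516 to 0.098). In astrocyte nuclei Kcnt1 was 50.5 and 77.7 CPM in vehicle and 37.6 and 45.0 CPM in FGF1 mice on Day 5.

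In tanycyte-like cells Kcnd2, the A-type gene, was 18.1, 22.6 and 31.4 CPM in vehicle and 5.74, 8.59 and 21.3 CPM in FGF1 mice (log2 -1.16 ± 0.26, FDR = 0.0105), lower in 6 of 6 batches and called in all 17 alternatives. In astrocyte-like cells, where its level was higher, Kcnd2 had a log2 value of 0.18 ± 0.12 (FDR = 0.336), and in OPC-like cells -0.02 ± 0.13. The OPC-led Kcnip3 had 0.00 ± 0.13 in OPC-like cells and the oligodendrocyte-led Kcna1 -0.21 ± 0.13 in oligodendrocyte-like cells, neither called.

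Marker RNA of other cell types moved with the groups. In astrocyte-like cells the 5 neuron markers summed to 100.4 to 199.8 CPM in FGF1 and 189.5 to 480.1 CPM in vehicle mice, the 5 tanycyte markers to 120.5 to 251.7 and 71.3 to 97.2 CPM, and the 5 astrocyte markers to 4979 to 6192 and 4358 to 5224 CPM. In tanycyte-like cells the astrocyte markers summed to 584.8 to 822.8 CPM in FGF1 and 756.7 to 1223 CPM in vehicle mice, and the neuron markers to 108.2 to 212.1 and 140.1 to 349.5 CPM. No marker of these lists was at 0 in either group. Kcnip1, highest in vehicle OPC-like cells (53.7 ± 18.3 CPM), and the neuron markers both lay lower after FGF1 in astrocyte-like cells. Kcnt1 lay lower in astrocyte-like and tanycyte-like cells. The astrocyte markers lay higher in astrocyte-like and lower in tanycyte-like cells, with overlap between the groups. The part of these markers in the channel values was not tested.

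**Figure D5:**
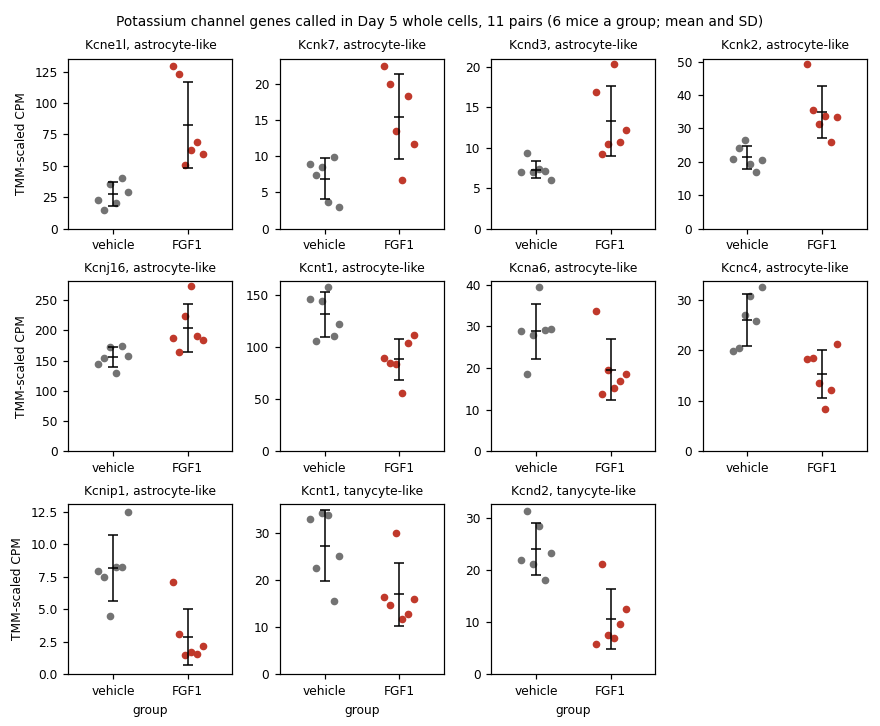
CPM per mouse of 11 of the called pairs in whole cells on Day 5, vehicle and FGF1 (n = 6 mice/group), with 1 point per mouse and the mean and SD as bars. Kcne1l in astrocyte-like cells is the called pair whose groups do not overlap (14.9 to 40.0 against 50.8 to 129.6 CPM).

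Of 87 pairs of partner genes in whole cells, 12 were called, all lower after FGF1, against 4.1% of the pairs of all genes; of all genes 6.06% were called lower in astrocyte-like and 2.79% in tanycyte-like cells. Atp1b2, a subunit gene of the sodium-potassium pump, was lower in tanycyte-like (log2 -0.77), ependymal-like (-0.69) and astrocyte-like (-0.29) cells, and also in endothelial-like and oligodendrocyte-like cells. Other called pairs were Slc12a5, the neuronal potassium chloride cotransporter (log2 -0.99), and Amigo2 (log2 -0.69) in astrocyte-like cells and Lgi1 in tanycyte-like cells (log2 -0.74).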

How the data were processed

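snRNA-seq and scRNA-seq of hypothalami were measured as counts of UMIs per gene and barcode, which the authors deposited as raw counts. The submitters' processing notes name Cell Ranger 1.2 and Seurat; reads were mapped to GRCm38, with introns counted for nuclei. No depth correction had been applied to these counts. Cell types of nuclei were those deposited with the barcodes, while whole-cell clusters, which carry numbers only, were named here from at least 3 of their markers and can differ from the study's. Clusters under 150 cells (385 cells) and 660 nuclei marked as filtered were left out. Doublets had been removed from whole cells before deposit and no caller was run here.

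Counts were summed per mouse and type (at least 10 cells per mouse, at least 2 mice per group), filtered with filterByExpr, scaled by TMM, and compared without covariates in R 4.3.3 by the quasi-likelihood test of edgeR 4.0.16 (checked on simulated data), adjusted by Benjamini-Hochberg over all genes of a type. Each mouse was 1 replicate. CPM are TMM-scaled in FGF1 comparisons and unscaled in the description of vehicle mice. Alternatives were DESeq2 1.42.0, other scaling, no filter, at least 30 cells, thinning to 1000 UMIs, replicate or batch blocks, an absolute log2 above 1, and leaving out each mouse; the batch block was chosen after seeing the data. The channel genes, subfamilies and partner genes were chosen with earlier results of these data known. Named were called pairs, then up to 20 pairs per comparison with the smallest p below 0.05 and no overlap (examples for Day 5 nuclei), the 2 genes per type with the highest ratio to the median type (at least 20 UMIs), and the 2 genes per subfamily with the most UMIs; other genes, and the names in whole-cell classes, were chosen after values were seen. Precision is limited by 2 to 6 mice per group. Of changes simulated at a log2 of 1, the test recovered 15% in Agrp and 23% in ependymal nuclei on Day 1. It recovered 13% in Glu5 nuclei on Day 5 and 1% for the interaction in n29 neurons. In astrocyte-like and tanycyte-like cells it recovered 81% and 86%. Some genes are not reported here.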

Additional observations from a re-analysis of the deposited data

Results flagged for a closer look

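In 3 of 26 groups of 4 to 10 mice tested, those of the whole-cell pairs named above, 1 mouse lay far from the others by Dixon's criterion, which chance meets in about 1 of 20 groups. In astrocyte-like cells FGF1 replicate 7 had 7.04 CPM of Kcnip1 (the other FGF1 mice 1.495 to 3.08 CPM) and 33.8 CPM of Kcna6 (the others 13.9 to 19.4 CPM). In tanycyte-like cells FGF1 replicate 6 had 29.99 CPM of Kcnt1 (the others 11.8 to 16.3 CPM). All 3 values lay towards the vehicle level, and each gene was lower after FGF1 with that mouse included.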

How the results depend on the processing

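No named log2 fold change reversed under any alternative: 580 values kept their side of the FDR threshold, 34 lost it and 27 gained it. The lack of reversals is no support. The pairs that were not called had been named because their groups do not overlap, so leaving out 1 mouse could hardly reverse them. Settings in which a pair was not tested are not counted. On Day 1 the number of called channel pairs was 4 with DESeq2, 5 with no filter on low counts and 3 after thinning, against 2. It was 1 with the batch block, 0 with at least 30 cells per mouse and 0 with the replicate block. When 1 mouse was left out it was 0 to 5. Calls of all genes moved too: in astrocytes DESeq2 called 200 of 6063 genes, against 94 by edgeR. With no filter 1269 channel pairs were tested, against 377. The 3 pairs after thinning were Kcnip4 in Agrp neurons, tanycytes and ependymal cells, where 7 of 422, 56 of 509 and 50 of 192 genes were called. On Day 5 in nuclei it was 4 with the batch block, 4 with no filter and 1 to 9 when 1 mouse was left out, against 0; leaving 1 mouse of 2 assumes that the lone mouse varies like the other group. In whole cells it was 20 with no filter, 5 with an absolute log2 above 1 and 8 to 17 when 1 mouse was left out, against 12. The batch block called 14, and in oligodendrocyte-like cells it called 348 of 8438 genes, against 190. With no filter 676 channel pairs were tested, against 89, and 1250 of 15721 genes were called in astrocyte-like cells, against 1240 of 9830. The interaction called 0 under every alternative run. With at least 30 cells per mouse, Agrp and ependymal nuclei of Day 1 were not fitted, so the 0 there does not bear on the 2 called pairs. Why the other counts moved was not tested. Replicate numbers did not pair the mice of Day 1: same-numbered mice deviated from their group means with correlations of -0.28, -0.45 and 0.53, and the groups of Day 5 nuclei and whole cells share no numbers; with the replicate block, the FDR of Kcnq5 in Agrp neurons was 0.0687 and that of Kcnd3 in ependymal cells 0.071. Counts of genes highest in a neuron type were 44, and 53 in FGF1 mice, 51 after thinning, 40 of 60 genes with at least 200 UMIs, and 40 to 48 when 1 mouse was left out. No such count was made over all genes. Depth limits the rarer genes: 25 of 86 were tested in no type on Day 1, 24 on Day 5 and 52 in whole cells.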
